A study of Mus musculus with 9 samples.

Results

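The genes described here are the V segments of the beta, gamma and delta chains of the T cell receptor, measured in immune cells of a mouse melanoma. They were chosen by name, as every gene whose symbol starts with Trbv, Trgv or Trdv. The combined alpha and delta segments were left out. In the gamma locus only 1 segment, Trgv2, carries that name in the annotation, and 6 carry the older form Tcrg-V, which was counted as Trgv. The files held 34 such genes among 22136, of which 22 were beta, 7 gamma and 5 delta segments. The annotation (GENCODE M21, build GRCm38) lists 48, and the 14 others are pseudogenes that the tables did not list. Of the 34 genes, 28 had reads in every library and 33 passed the filter on low counts, the exception being Trdv2-1.

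RNA was sequenced in bulk from CD45+ cells, the white blood cells, sorted from tumours of YUMM 2.1 cells, a mouse melanoma line that was grown under the skin of C57BL/6J mice. There were 3 groups of 3 libraries each. The mice had received anti-B7-H3, an antibody against a surface protein of the B7 family, or anti-PD1, an antibody against an inhibitory receptor of T cells, or an IgG isotype control. Dosing started once tumours measured 20 to 50 mm3, the line and the strain were the same in all groups, and the combination of both antibodies was not analysed here. The labels do not state whether the libraries of a group are separate animals, so p-values measure only the spread between these samples, which may be technical.

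Each T cell carries a receptor of an alpha and a beta chain or of a gamma and a delta chain. In a developing T cell the recombinase joins 1 V segment of a locus to D and J segments (V to J in the gamma and alpha loci), and the joined exon is spliced to a constant gene. A clone and its progeny express the same V segment, so the mixture of V transcripts in a tissue reflects which clones are there and how much receptor RNA they make. Mouse gamma delta T cells of the skin and other surfaces use particular segments, Tcrg-V5 with Trdv4 in epidermal T cells, and Tcrg-V6 with Trdv4 in cells that make interleukin 17. The segments Trbv13-2, Trbv29 and Trbv1 are known from the beta chains of invariant NKT cells.

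The germline 3′ ends of the coding parts show how closely the segments resemble each other where the third hypervariable loop begins. All 34 hold an in-frame cysteine codon within their last 30 coding bases. The ends shown are those of the 4 beta segments with the highest TPM, of segments with near copies, of Trbv15, which is described with the anti-PD1 comparison, and of the main gamma and delta segments. They were read from the GENCODE M21 transcripts (GRCm38), 5′ to 3′ on the strand of the gene, with the first such cysteine codon in capitals.
Trbv3 (chr6:41048799-41048828, plus strand): gtgtacttcTGTgccagcagcttagccaca
Trbv13-1 (chr6:41116439-41116468, plus strand): catctttgtacttcTGTgccagcagtgatg
Trbv13-2 (chr6:41121803-41121832, plus strand): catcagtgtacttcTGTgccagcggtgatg
Trbv13-3 (chr6:41130556-41130585, plus strand): cagctgtatatttcTGTgccagcagtgatg
Trbv12-1 (chr6:41114038-41114067, plus strand): tctgctatgtacttcTGTgccagctctctc
Trbv12-2 (chr6:41119335-41119364, plus strand): tctgccgtgtacttcTGTgccagctctctc
Trbv15 (chr6:41141629-41141658, plus strand): agctgtgtatctgTGTgccagcagtttagc
Trbv16 (chr6:41152201-41152230, plus strand): agcggtgtatcttTGTgcaagcagcttaga
Tcrg-V4 (chr13:19185477-19185506, plus strand): agctatctactacTGTtcctacggctaaag
Tcrg-V6 (chr13:19190900-19190929, plus strand): cgggaacttattacTGTgcatgctgggata
Tcrg-V3 (chr13:19243272-19243301, plus strand): agccacctactacTGTgcagtctggataaa
Trgv2 (chr13:19336573-19336602, minus strand): agccacctactacTGTgcagtctggatgag
Tcrg-V1 (chr13:19340425-19340454, plus strand): agccacctactacTGTgcagtctggataaa
Trdv1 (chr14:53882188-53882217, plus strand): actcaggcacttacctcTGTggagggaaag
Trdv2-1 (chr14:53946631-53946660, plus strand): gcgacgtatttcTGTgcactcagggggagc
Trdv2-2 (chr14:53961573-53961602, plus strand): gcgacgtatttcTGTgctctcatggagcgc
Trdv4 (chr14:54075486-54075515, plus strand): gctggtacgtactacTGTgggtcagatatc

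Tcrg-V1 and Tcrg-V3 end in the same letters. Over their whole coding parts Tcrg-V1 is 94.9% identical to Trgv2 and 94.1% to Tcrg-V3, Trdv2-1 and Trdv2-2 are 92.0% identical, Trbv13-2 and Trbv13-3 90.6%, and Trbv12-1 and Trbv12-2 88.2%. The median over the 231 pairs of beta segments is 53.0%. Of the 34 segments, 10 share a stretch of 31 bases with another gene of the tables, and 24 share none. The shared part is largest for Trdv2-1 and Trdv2-2, at 70.2% and 69.5% of their stretches. It is 48.0% for Tcrg-V1, 39.9% for Tcrg-V3 and 29.1% for Trgv2, 11.3% or less for each of the Trbv13 segments, and 4.09% for each of the Trbv12 segments. Reads of these genes may be split between the copies, so their single values are uncertain. The gene spans of 10 segments, among them Trbv4, Trbv5, Trdv4 and Trdv5, also overlap other genes without sharing coding bases. The library kit does not mark strand, so reads of such partners cannot be told apart.

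The beta segments lie on chromosome 6, the gamma segments on 13 and the delta segments on 14. Of the 22 beta segments, 21 lie 256228 to 646333 bases upstream of Trbc1 on the plus strand. The other, Trbv31, lies on the minus strand downstream of Trbc2 (41557691 to 41558452). Trdv5 lies in the same way on the minus strand, downstream of most of Trdc (54148662 to 54149294). Tcrg-V7, Tcrg-V4, Tcrg-V6 and Tcrg-V5 stand before the constant gene Tcrg-C1, Tcrg-V3 before Tcrg-C3, Trgv2 before Tcrg-C2 and Tcrg-V1 before Tcrg-C4. The D and J segments of the 3 loci, 23 gene models, held 22 counts in all 9 libraries together, so joints between V and J could not be followed.

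Libraries held between 14487012 and 31533106 estimated counts, of which 11175.1 to 14764.8 fell on beta, 222.1 to 2111 on gamma and 417.1 to 1530.7 on delta V segments. A floor of 3 counts in a library came to 0.0924 to 0.222 CPM (the counts-per-million scale, with TMM-scaled library totals). A pair of libraries stood apart over all genes. The first principal component put IgG control 2 at 192, and the next put anti-PD1 3 at -149. They had 1896 and 1248 of 13178 tested genes at 0, against at most 822 in the others. The cells were checked against T cell markers, and all 8 of these had reads in every group. Their summed level was 4799 to 7213 CPM after anti-B7-H3, 4730 to 5757 after anti-PD1 and 5680 to 8223 in IgG controls. The 8 macrophage markers summed to 1631 to 2517 CPM after anti-B7-H3, 1136 to 1721 after anti-PD1 and 115 to 288 in IgG controls. All 8 were higher in every library of each antibody than in any control. At an adjusted p under 0.05 edgeR called 6 of the 8 higher with each antibody, and limma-voom called 3 and 4. Of all tested genes edgeR called 0.827% (anti-B7-H3) and 1.72% (anti-PD1) higher. A larger share of macrophage RNA leaves less for T cells on the CPM scale, and its part in the V segment levels was not tested. In bulk RNA, fewer cells of a type and less RNA per cell cannot be told apart.

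Per length, the beta locus was led by Trbv13-2 at 189 ± 33.9 TPM and Trbv3 at 188 ± 52.8 TPM (mean ± SD over all 9 libraries, on the deposited transcripts-per-million scale). Trbv12-2 followed at 147 ± 44.6 TPM, Trbv16 at 128 ± 59.0, Trbv19 at 111 ± 30.1, Trbv2 at 101 ± 35.5 and Trbv1 at 101 ± 19.6. At the foot of the order were Trbv23 at 11.9 ± 11.2 TPM, Trbv30 at 5.99 ± 2.06 and Trbv21 at 1.65 ± 1.21, the last with at most 21 counts in a library. Neighbours in the order mostly lay within their spread. Of 21 neighbouring pairs, 2 differed by more than both SDs, Trbv14 against Trbv23 and Trbv30 against Trbv21.

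Position along the locus went with level. The 14 segments from Trbv1 to Trbv17 had a median of 89.0 TPM, and the 7 from Trbv19 to Trbv30, nearer to the constant genes, a median of 41.7 TPM. The cut before Trbv19 was made for this description. Among the 7 were Trbv19, at 111 TPM, and the lowest of the locus, Trbv23, Trbv30 and Trbv21. Across the 21 segments upstream of Trbc1, Spearman's rho between mean TPM and the distance to Trbc1 was 0.52, as a description of genes that share all libraries. Trbv31, on the far side, stood at 74.7 ± 18.0 TPM.

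Each library held a broad mixture of beta segments. The effective number of segments (the exponential of Shannon's entropy, the number of equally common segments that would give the same evenness) was 17.8, 17.2 and 16.5 after anti-B7-H3, 17.2, 16.7 and 16.4 after anti-PD1 and 16.1, 15.98 and 17.5 in IgG controls, out of 22. These values overlapped between all groups, and no library was dominated by a few segments. The most abundant segment took 10.6%, 11.3% and 13.6% of the beta counts after anti-B7-H3, 11.1%, 10.5% and 11.5% after anti-PD1, and 13.3%, 12.5% and 11.2% in IgG controls. It was Trbv13-2 in 5 libraries, Trbv3 in 2 and Trbv12-2 in 2. Exact 95% binomial intervals (Clopper-Pearson) of the beta shares were at most ± 0.618 percentage points, and intervals and floors cover counting error only, since PCR reads without molecular identifiers are not independent molecules. In the exact two-sided permutation test over libraries, anti-B7-H3 differed from IgG controls by 0.64 effective segments (p = 0.3) and anti-PD1 by 0.23 (p = 0.7), where 0.1 is the smallest p that 3 against 3 libraries allow. With each library left out in turn the first difference ran from 0.32 without anti-B7-H3 1 to 1.12 without IgG control 3.

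**Figure D1:**
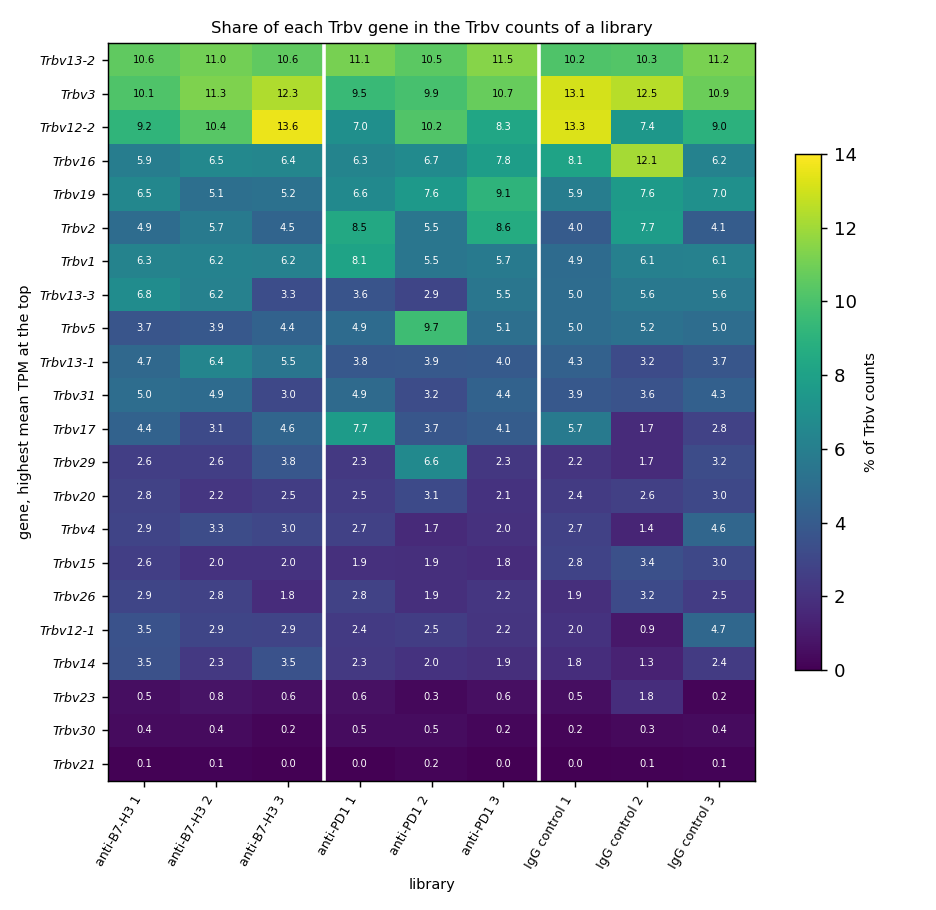
Share of each beta V segment in the beta V counts of each library, in percent, with segments ordered by mean TPM and libraries in columns by group. Trbv13-2 stays between 10.2% and 11.5% in all 9 libraries, while Trbv16 in IgG control 2 and Trbv5 in anti-PD1 2 stand out of their rows.

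How steady a share was differed greatly between segments. Trbv13-2 had 10.6%, 11% and 10.6% of the beta counts after anti-B7-H3, 11.1%, 10.5% and 11.5% after anti-PD1 and 10.2%, 10.3% and 11.2% in IgG controls, a coefficient of variation of 4.18%. It was the steadiest segment, and its values overlapped between groups. By contrast, 10 of the 22 beta segments varied by over 30%, up to 79.4% for the sparse Trbv21.

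Several of the uneven segments were high in 1 library, and those of them outside the 12 segments given library by library were chosen after their values were seen. Trbv5 took 9.65% of the beta counts in anti-PD1 2 (interval 9.13% to 10.2%) and at most 5.25% elsewhere, and Trbv29 took 6.65% in the same library (6.20% to 7.11%) and at most 3.82% elsewhere. In anti-PD1 1 it was Trbv17, at 7.66% (7.202% to 8.13%) against at most 5.73% in any other library. IgG control 2, which stood apart, had 12.1% Trbv16 (11.5% to 12.7%) against at most 8.11% elsewhere, and 1.81% Trbv23 (1.58% to 2.08%) against at most 0.756%. IgG control 3 had 4.66% Trbv12-1 and 4.61% Trbv4 (intervals 4.33% to 5.02% and 4.27% to 4.96%), against at most 3.54% and 3.26% elsewhere. All were picked for being high in 1 library, and the intervals cover counting error alone.

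Summed over the locus, beta V transcripts were lower in every anti-PD1 library than in any IgG control, with an exact p at the smallest value the design allows. The total was 862, 474 and 455 CPM after anti-B7-H3, 440, 441 and 549 CPM after anti-PD1, and 607, 691 and 757 CPM in IgG controls. All 3 anti-PD1 values lay below all 3 controls, while anti-B7-H3 had the highest library of all and a pair of low ones, so that it overlapped both other groups. The beta total also went with depth, the estimated counts of a library. Libraries at 607 CPM or more held 14487012 to 20477257 estimated counts, and those at 549 CPM or less held 24257522 to 31533106. All anti-PD1 libraries were deeper than all controls, so group and depth cannot be told apart here. The part of depth was not tested. Anti-PD1 was 0.695-fold IgG control, a log2 difference of -0.52 (exact two-sided permutation p = 0.1, 0.818 after adjustment over 18 tests of this kind), and -0.62 without IgG control 2 and anti-PD1 3. Anti-B7-H3 was 0.837-fold IgG control (log2 difference -0.26, exact p = 0.4) and 1.20-fold anti-PD1 (0.27, exact p = 0.5). Without anti-B7-H3 1 these differences were -0.55 and -0.03.

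The place of anti-B7-H3 1 differed between units. In deposited TPM the beta total was 1779, 1612 and 1564 after anti-B7-H3, 1350, 1213 and 1534 after anti-PD1, and 1970, 2253 and 1952 in IgG controls. On that scale both antibody groups lay below all controls (log2 differences -0.32 and -0.60, exact p = 0.1 each), and every anti-B7-H3 library lay above every anti-PD1 library (0.28, exact p = 0.1). TPM divides by an effective length that differed between libraries, for the 340 bases of Trbv13-2 from 146 in anti-B7-H3 2 to 189 in anti-B7-H3 1.

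The beta V segments were also set against the constant genes Trbc1 and Trbc2, to which every beta V exon is spliced. As a percentage of the counts of Trbc1 and Trbc2, the beta V counts came to 37.6%, 30.8% and 30.95% after anti-B7-H3, 30.5%, 31.5% and 38.5% after anti-PD1, and 40.1%, 39.8% and 30.7% in IgG controls. The groups overlapped, with log2 differences from IgG controls of -0.15 (anti-B7-H3, exact p = 0.4) and -0.14 (anti-PD1, exact p = 0.3). With each library left out in turn these ran from -0.28 to -0.08 and from -0.26 to -0.07, in both cases from without IgG control 3 to without IgG control 1.

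**Figure D2:**
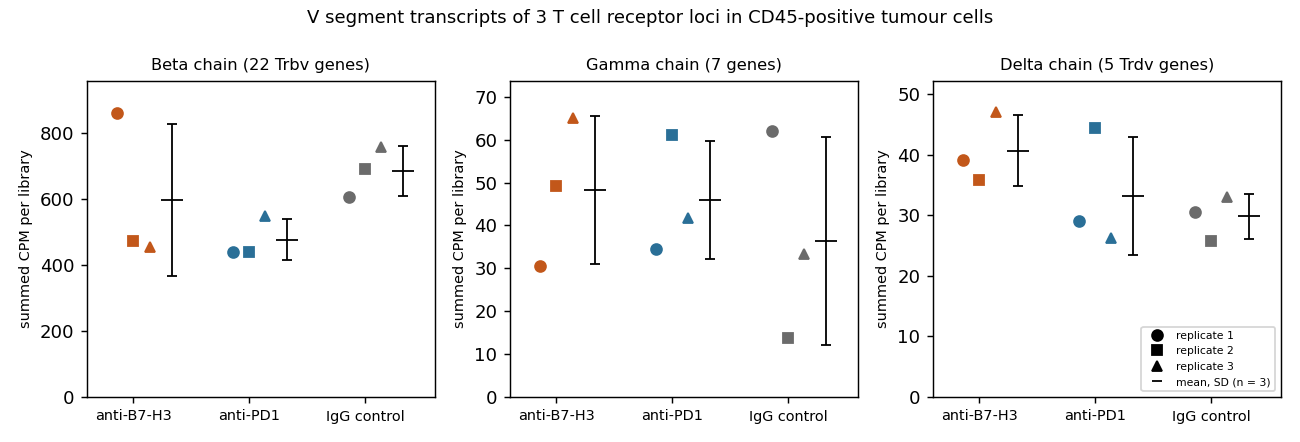
Summed CPM of the beta, gamma and delta V segments in each library (points, 1 marker per replicate number), with the mean and SD of each group beside them (n = 3). Beta totals of anti-PD1 lie between 440 and 549 CPM, below the controls at 607 to 757, and delta totals of anti-B7-H3 lie between 35.8 and 47.2 CPM, above the controls at 25.8 to 33.1.

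Delta V transcripts on the CPM scale were higher in every anti-B7-H3 library than in any IgG control. The delta total was 39.2, 35.8 and 47.2 CPM after anti-B7-H3, 29.0, 44.4 and 26.2 CPM after anti-PD1, and 30.6, 25.8 and 33.1 CPM in IgG controls. All anti-B7-H3 values exceeded the controls, and anti-PD1 spanned both, with its second library high. Anti-B7-H3 was 1.36-fold IgG control (log2 difference 0.44, exact p = 0.1, adjusted 0.818), and in deposited TPM the groups overlapped (0.37, exact p = 0.4). Anti-PD1 was 1.09-fold IgG control (0.12, exact p = 0.8), and anti-B7-H3 1.25-fold anti-PD1 (0.32, exact p = 0.3).

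Gamma V transcripts varied within every group. The gamma total was 30.4, 49.2 and 65.0 CPM after anti-B7-H3, 34.6, 61.2 and 41.7 CPM after anti-PD1, and 62.1, 13.7 and 33.4 CPM in IgG controls. The low control was IgG control 2, and all groups overlapped. Against IgG controls the log2 difference was 0.58 after anti-B7-H3 (exact p = 0.6) and 0.53 after anti-PD1 (exact p = 0.5). Without IgG control 2 these were 0.02 and -0.03. Without Trgv2, the most abundant gamma segment, the log2 difference of the gamma total was 1.36 after anti-B7-H3 (exact p = 0.4) and 0.77 after anti-PD1 (exact p = 0.7), and 0.58 instead of 0.05 for anti-B7-H3 against anti-PD1 (exact p = 0.4). Gamma and delta together made up 7.47%, 15.2% and 19.8% of all V counts described here after anti-B7-H3, 12.6%, 19.3% and 11% after anti-PD1, and 13.3%, 5.41% and 8.07% in IgG controls.

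Anti-B7-H3 against IgG control asked how that antibody changes the immune cells of the tumour, and no V segment passed the test in it. In edgeR's quasi-likelihood test on the counts, adjusted over all 13178 genes tested, 0 of 33 segments were called, where 0.85% of all genes were (0.827% higher and 0.0228% lower). At an unadjusted p under 0.05 the count was 0 of 33 in edgeR, against 8.81% of all genes. It was 0 of 33 in DESeq2 and 5 of 33 in limma-voom, and 5 of 34 in edgeR without anti-B7-H3 1. DESeq2 and limma-voom called 0 segments as well. The median log2 fold change was -0.15 over the 22 beta, 0.67 over the 7 gamma and 0.61 over the 4 tested delta segments, beside 0.02 over all tested genes. Of the beta segments 16 had a negative and 6 a positive fold change, and all 7 gamma segments had a positive one. Of all tested genes 6860 had a positive one. The gamma signs leaned on IgG control 2, which had 0 counts of Tcrg-V3, Tcrg-V4, Tcrg-V5 and Tcrg-V7. Without that library the log2 difference of the gamma total was 0.02. CPM values did not overlap for 2 segments, Trdv4 and Trdv2-2, both higher, where 9.96% of all genes were higher and 5.48% lower in this way.

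The 3 segments with the smallest p were Trbv16, Trbv5 and Trdv4. Trbv16 had 51.1, 30.9 and 29.3 CPM after anti-B7-H3, against 49.2, 83.8 and 46.9 CPM in IgG controls. The groups overlapped through anti-B7-H3 1, and IgG control 2 was the highest. The log2 fold change was -0.69 ± 0.32 (SE, edgeR adjusted p = 0.579), and -0.38 without IgG control 2 and anti-PD1 3. Trbv5 had 31.8, 18.3 and 20.0 CPM after anti-B7-H3, against 30.1, 36.3 and 37.7 CPM in IgG controls. It overlapped through the same library, with a log2 fold change of -0.57 ± 0.32 (edgeR adjusted p = 0.695).

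Trdv4 had 14.2, 12.2 and 20.0 CPM after anti-B7-H3, against 10.9, 7.85 and 10.5 CPM in IgG controls. Every anti-B7-H3 library lay above every control, with a log2 fold change of 0.66 ± 0.38 (edgeR adjusted p = 0.701). In deposited TPM the groups overlapped, at 29.5, 41.9 and 70.0 TPM after anti-B7-H3 and 36.0, 25.9 and 27.5 TPM in IgG controls. Trdv2-2 had 17.6, 15.2 and 15.3 CPM after anti-B7-H3, against 11.03, 4.03 and 13.3 CPM in IgG controls. Again the groups did not overlap, though the log2 fold change of 0.77 ± 0.55 did not pass (edgeR adjusted p = 0.790). It was 0.40 without IgG control 2 and anti-PD1 3.

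Shares within the beta locus do not depend on how much T cell RNA a library holds. With anti-B7-H3, Trbv13-1 took 4.72%, 6.39% and 5.45% of the beta counts, against 4.33%, 3.19% and 3.75% in IgG controls. The anti-B7-H3 shares were all higher. Trbv1, at 6.26%, 6.21% and 6.16% after anti-B7-H3 against 4.89%, 6.09% and 6.14% in IgG controls, was higher by a narrow margin. In the other direction, Trbv5 took 3.69%, 3.86% and 4.39% after anti-B7-H3, against 4.96%, 5.25% and 4.98% in IgG controls, and Trbv15 took 2.62%, 2.03% and 2.03%, against 2.84%, 3.44% and 3.01%. These 4 were the beta segments, of 22, whose shares did not overlap. With 3 against 3 libraries, random labels would separate each share with probability 0.1. The exact permutation p of each was 0.1 (0.6 after adjustment over 102 shares). Over all tested genes scaled by the beta total, 9.93% were higher and 1.01% lower without overlap. Genes scaled so carry any shift of the beta total (median log2 fold change 0.32), while beta shares add up to the whole. These percentages are therefore not a like measure for the shares.

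Anti-PD1 against IgG control asked the same of PD1 blockade. Again no segment passed, but low values were frequent among beta segments. By edgeR 0 of 33 were called, where 1.74% of all genes were (1.72% higher and 0.0152% lower), and DESeq2 and limma-voom called 0. At an unadjusted p under 0.05 there were 5 of 33, 4 of them beta segments and the fifth Trdv4, against 10.9% of all genes. With libraries scaled by the beta total there was 1 of 33. The median log2 fold change was -0.46 over beta, 0.21 over gamma and -0.24 over delta segments, beside -0.04 over all tested genes, and 19 of the 22 beta segments had a negative one. For 7 of the 22 beta segments every anti-PD1 library lay below every control, where 6.53% of all genes were arranged in this way. They were Trbv3, Trbv12-2, Trbv13-1, Trbv13-3, Trbv15, Trbv16 and Trbv20. The beta segments share the depth and scaling of a library and its T cell RNA, so they are not separate observations of the condition.

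Trbv3 had 41.6, 43.7 and 58.9 CPM after anti-PD1, against 79.4, 86.6 and 82.2 CPM in IgG controls. The groups stood well apart, with narrow spread in the controls. The log2 fold change was -0.78 ± 0.24 (edgeR adjusted p = 0.199), the smallest adjusted p of any segment. Trbv15 had 8.43, 8.28 and 9.77 CPM after anti-PD1, against 17.2, 23.8 and 22.8 CPM in IgG controls. It was close to constant among the anti-PD1 libraries and below every control, at -1.27 ± 0.41 (edgeR adjusted p = 0.224).

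Trbv12-2 had 30.8, 45.1 and 45.5 CPM after anti-PD1, against 80.5, 51.4 and 68.2 CPM in IgG controls. The groups did not overlap, and IgG control 2 was the lowest control. The log2 fold change was -0.72 ± 0.27 (edgeR adjusted p = 0.325), and -0.97 without IgG control 2 and anti-PD1 3. Trbv16 had 27.9, 29.5 and 42.9 CPM after anti-PD1, below the controls given above, at -0.84 ± 0.32 (edgeR adjusted p = 0.352).

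Other abundant beta segments overlapped between anti-PD1 and IgG control. Trbv13-2 had 91.4, 52.2 and 48.2 CPM after anti-B7-H3, 48.8, 46.2 and 63.1 CPM after anti-PD1, and 61.7, 70.9 and 84.8 CPM in IgG controls. Anti-PD1 3 exceeded the lowest control. Trbv19 had 55.7, 24.3 and 23.7 CPM after anti-B7-H3, 29.1, 33.5 and 49.9 CPM after anti-PD1, and 36.1, 52.8 and 53.0 CPM in IgG controls, again with overlap. Trbv1 had 54.0, 29.4 and 28.0 CPM after anti-B7-H3, 35.7, 24.2 and 31.3 CPM after anti-PD1, and 29.7, 42.1 and 46.4 CPM in IgG controls. In each of these 3 segments anti-B7-H3 1 was the highest library.

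Trbv2 behaved otherwise. It had 42.6, 27.1 and 20.6 CPM after anti-B7-H3, 37.2, 24.2 and 47.5 CPM after anti-PD1, and 24.4, 53.5 and 30.8 CPM in IgG controls, and its log2 fold change after anti-PD1 was 0.00 ± 0.39 (edgeR adjusted p = 0.999). Trbv13-3 had 58.7, 29.3 and 14.9 CPM after anti-B7-H3, 16.04, 12.8 and 30.1 CPM after anti-PD1, and 30.1, 38.9 and 42.2 CPM in IgG controls. Its highest anti-PD1 library, at 30.05 CPM, lay just below the lowest control, at 30.09 CPM, and the log2 fold change was -0.92 ± 0.47 (edgeR adjusted p = 0.529).

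As shares of the beta counts, which come from the same reads as the CPM, Trbv3 and Trbv15 also lay lower after anti-PD1. Trbv3 took 9.47%, 9.91% and 10.7% after anti-PD1, against 13.1%, 12.5% and 10.9% in IgG controls, a difference of -2.12 percentage points. The highest anti-PD1 share and the lowest control share were adjacent. Trbv15 took 1.92%, 1.88% and 1.78% after anti-PD1, against 2.84%, 3.44% and 3.01% in IgG controls, a difference of -1.24 percentage points (exact permutation p = 0.1 for each, 0.6 adjusted over 102 shares). They were the 2 beta segments of 22 without overlap. Random labels would separate each share with probability 0.1, so 2 of 22 is no more than that rate gives. Over all genes scaled by the beta total, 26.7% were higher and 0.516% lower without overlap. That scaling shifted all genes upward (median log2 fold change 0.49), so these percentages are not a like measure for the shares.

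**Figure D3:**
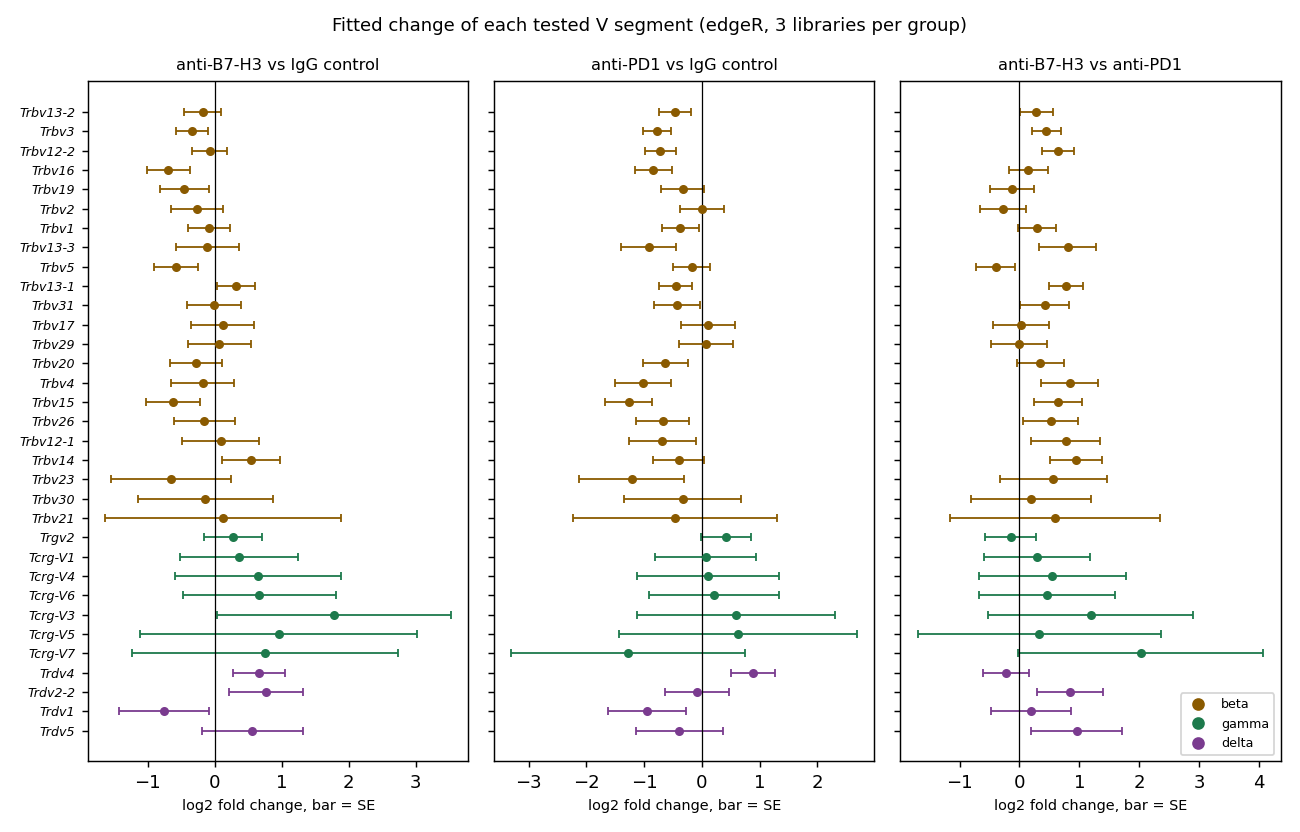
Log2 fold change of each of the 33 tested V segments with its SE, from edgeR over 9 libraries, for anti-B7-H3 against IgG control, anti-PD1 against IgG control and anti-B7-H3 against anti-PD1. Beta segments sit mostly left of 0 in the second panel and right of 0 in the third, and sparse gamma segments have bars that span several units.

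Anti-B7-H3 and anti-PD1 were also set against each other. Over all genes 0% were called by edgeR, 0 of 13178, with 3.23% at an unadjusted p under 0.05, while DESeq2 called 15 and limma-voom 2. Of the 33 segments 0 were called by any of these, and 2 had an unadjusted p under 0.05 in edgeR, or 0 with libraries scaled by the beta total. The median log2 fold change was 0.43 over beta, 0.46 over gamma and 0.52 over delta segments, beside 0.04 over all tested genes, and 18 of 22 beta segments had a positive one. For 5 beta segments (Trbv12-1, Trbv12-2, Trbv13-1, Trbv14 and Trbv4) and for Trdv2-2, the lowest anti-B7-H3 value in CPM exceeded the highest anti-PD1 value, and 0 segments were arranged the other way. Over all genes 7.11% were higher and 6.4% lower in this way. This comparison shares its libraries with the 2 before it and is not independent of them.

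Trbv13-1 had 40.7, 30.3 and 24.8 CPM after anti-B7-H3, against 16.8, 17.3 and 21.7 CPM after anti-PD1, and 26.3, 22.04 and 28.4 CPM in IgG controls. The antibody groups did not overlap, and the controls lay above all anti-PD1 libraries and overlapped anti-B7-H3. The log2 fold change of anti-B7-H3 over anti-PD1 was 0.78 ± 0.28 (edgeR adjusted p = 0.999983). Trbv12-2 had 78.9, 49.2 and 61.9 CPM after anti-B7-H3, all above the anti-PD1 values given before (0.65 ± 0.27, same adjusted p). Trbv14 had 29.9, 10.9 and 16.05 CPM after anti-B7-H3, 10.1, 9.02 and 10.3 CPM after anti-PD1, and 11.2, 9.32 and 18.4 CPM in IgG controls. It was separated by a small gap and by anti-B7-H3 1, whose value was far above the rest (0.95 ± 0.44, and 0.46 without that library).

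Shares of the beta counts did not overlap between the antibodies for 7 of 22 segments, where random labels would separate each with probability 0.1. The shares are not independent of each other. Trbv4, Trbv12-1, Trbv13-1, Trbv14 and Trbv15 were higher after anti-B7-H3, and Trbv5 and Trbv19 lower. The widest gap in mean share among the 7 was that of Trbv5, at 3.98% ± 0.362 in anti-B7-H3 libraries and 6.56% ± 2.68 in anti-PD1 libraries (SD, n = 3 each), where anti-PD1 2 stood at 9.65%. Trbv19 averaged 5.60% ± 0.744 in anti-B7-H3 libraries and 7.77% ± 1.24 in anti-PD1 libraries. Trbv13-1 averaged 5.52% ± 0.835 in anti-B7-H3 libraries and 3.90% ± 0.0643 in anti-PD1 libraries, and the exact permutation p was 0.1 for each of the 7 segments (0.6 adjusted). Over all genes scaled by the beta total, 1.29% were higher and 9.02% lower without overlap. That scaling shifted all genes downward (median log2 fold change -0.19), so here too the percentages are not a like measure for the shares.

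Within the delta locus Trdv4 was the leading segment per length, at 43.0 ± 17.5 TPM over 9 libraries, ahead of Trdv2-2 at 33.3 ± 14.7 TPM, a difference within the spread. Trdv1 stood at 15.9 ± 9.05 TPM and Trdv5 at 10.97 ± 5.57 TPM. Trdv2-1, of which 70.2% is shared with Trdv2-2, had 12.3, 1.6 and 12.4 counts in 3 libraries and 0 in 6.

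Trdv4 held a larger part of the delta transcripts after anti-PD1 than in either other group. Its share of the delta counts was 36.1%, 34.1% and 42.4% after anti-B7-H3, 50.4%, 59.4% and 50.5% after anti-PD1, and 35.6%, 30.4% and 31.8% in IgG controls. Every anti-PD1 library was above all 6 others, and anti-B7-H3 overlapped the controls. The mean was 53.4% ± 5.15 after anti-PD1 and 32.6% ± 2.67 in IgG controls (SD, n = 3 each), a difference of 20.8 percentage points. It was -15.9 percentage points for anti-B7-H3 against anti-PD1, and both had an exact permutation p of 0.1 (0.6 after adjustment). Trdv2-2 had the opposite arrangement between the antibodies, with 45.0%, 42.5% and 32.5% of the delta counts after anti-B7-H3, against 31.2%, 31.4% and 14.2% after anti-PD1 (14.4 percentage points, exact permutation p = 0.1, 0.6 after adjustment). In IgG controls it took 36.0%, 15.6% and 40.0%, overlapping both. Shares of a locus add up to the whole, so the segments of a locus are not independent. Counting intervals of delta shares were at most ± 4.81 percentage points. In deposited TPM the anti-PD1 shares of Trdv4 were 50.4%, 59.5% and 50.2%, again above the rest.

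On the CPM scale Trdv4 had 14.6, 26.4 and 13.2 CPM after anti-PD1, against 10.9, 7.85 and 10.5 CPM in IgG controls. All anti-PD1 values were higher, anti-PD1 2 far ahead of the others, and the log2 fold change was 0.89 ± 0.39 (edgeR adjusted p = 0.431). The other delta segments did not follow. Trdv2-2 had 9.07, 13.9 and 3.73 CPM after anti-PD1, reaching below and above the controls, and Trdv5 had 2.52, 1.22 and 3.80 CPM after anti-PD1, against 3.77, 3.54 and 2.601 CPM in IgG controls. Trdv5 had 3.34, 5.64 and 5.58 CPM after anti-B7-H3, overlapping both.

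Trdv1 stood out in IgG control 2, where it took 40.2% of the delta counts (interval 35.5% to 45.2%) and at most 20.7% elsewhere. It had 4.08, 2.32 and 6.26 CPM after anti-B7-H3, 2.81, 2.82 and 5.43 CPM after anti-PD1, and 4.93, 10.4 and 6.10 CPM in IgG controls. Its share was 10.4%, 6.49% and 13.3% after anti-B7-H3, against 16.1%, 40.2% and 18.4% in IgG controls, which did not overlap (exact permutation p = 0.1, 0.6 adjusted over 102 shares).

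The gamma locus was led by Trgv2, at 84.8 ± 35.5 TPM, and the other 6 segments stayed at or below 13.99 TPM. Trgv2 had 16.8, 33.1 and 37.9 CPM after anti-B7-H3, 21.4, 40.4 and 35.5 CPM after anti-PD1, and 36.5, 12.9 and 23.0 CPM in IgG controls. The groups overlapped, with log2 fold changes against IgG controls of 0.28 ± 0.43 for anti-B7-H3 and 0.43 ± 0.43 for anti-PD1 (edgeR adjusted p = 0.925 and 0.791). Trgv2 took 55.0%, 67.1% and 58.2% of the gamma counts after anti-B7-H3, 61.7%, 66.1% and 85.2% after anti-PD1, and 58.8%, 93.6% and 69.1% in IgG controls. Its 2 highest shares, 93.6% (interval 89.6% to 96.5%) and 85.2% (82.8% to 87.3%), were those of IgG control 2 and anti-PD1 3, the libraries that stood apart over all genes. Counting intervals of gamma shares were at most ± 4.92 percentage points.

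**Figure D4:**
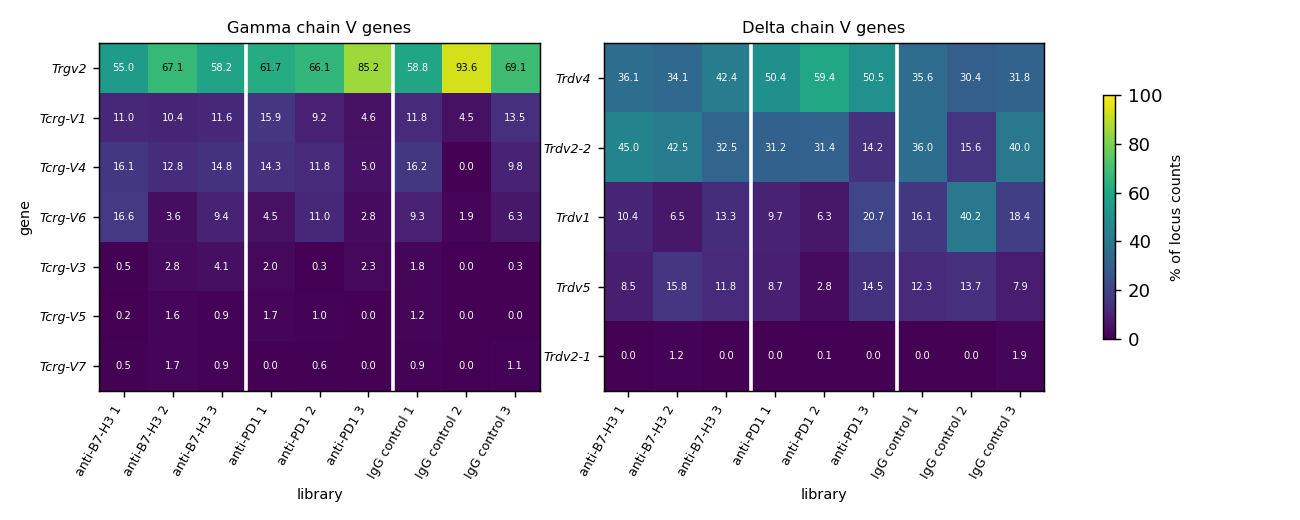
Share of each gamma V segment (left) and each delta V segment (right) in the counts of its locus in each library, in percent. Trgv2 holds 93.6% of the gamma counts in IgG control 2, and Trdv4 holds 50.4% to 59.4% of the delta counts in the 3 anti-PD1 libraries.

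Tcrg-V4, Tcrg-V1 and Tcrg-V6 came next. Tcrg-V4 had 4.90, 6.28 and 9.64 CPM after anti-B7-H3, 4.94, 7.25 and 2.10 CPM after anti-PD1, and 10.03, 0 and 3.26 CPM in IgG controls. It was at 0 counts in IgG control 2, which allows up to 0.186 CPM in that library. Tcrg-V1 had 3.36, 5.11 and 7.56 CPM after anti-B7-H3, 5.49, 5.66 and 1.91 CPM after anti-PD1, and 7.34, 0.618 and 4.51 CPM in IgG controls. Tcrg-V6, the partner of Trdv4 in cells that make interleukin 17, had 5.05, 1.77 and 6.14 CPM after anti-B7-H3, 1.54, 6.70 and 1.17 CPM after anti-PD1, and 5.79, 0.261 and 2.09 CPM in IgG controls. For all 3 the groups overlapped, IgG control 2 was the lowest library, and anti-PD1 3 was the lowest of its group.

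The remaining gamma segments were sparse. Tcrg-V3 had 0.152, 1.38 and 2.64 CPM after anti-B7-H3, 0.679, 0.189 and 0.970 CPM after anti-PD1, and 1.11, 0 and 0.105 CPM in IgG controls, with at most 85.8 counts. Tcrg-V5, the segment of epidermal T cells, had 0.0741, 0.789 and 0.616 CPM after anti-B7-H3, 0.583, 0.591 and 0 CPM after anti-PD1, and 0.751, 0 and 0 CPM in IgG controls, with at most 23.4 counts. Tcrg-V7 had 0.148, 0.851 and 0.558 CPM after anti-B7-H3, 0, 0.373 and 0 CPM after anti-PD1, and 0.551, 0 and 0.363 CPM in IgG controls, with at most 25.3 counts. The groups overlapped for each of the 3.

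Gamma V segments were also read beside the constant gene that follows them. Trgv2 counts were 74.4%, 52.9% and 52.9% of those of Tcrg-C2 after anti-B7-H3, 49.5%, 53.9% and 58.3% after anti-PD1, and 51.0%, 44.0% and 48.0% in IgG controls. Anti-B7-H3 lay above the controls in every library, which was not tested. The 4 segments before Tcrg-C1 together came to 41.1%, 28.4% and 46.4% of its counts after anti-B7-H3, 29.9%, 40.2% and 15.0% after anti-PD1, and 48.4%, 5.87% and 24.8% in IgG controls, with the lowest ratios again in IgG control 2 and anti-PD1 3. Tcrg-V1 counts were 15.4%, 18.2% and 21.7% of those of Tcrg-C4 after anti-B7-H3. They were 23.0%, 24.6% and 7.68% after anti-PD1, and 26.6%, 29.4% and 20.3% in IgG controls. Tcrg-C3 was sparse, with at most 127.8 counts in a library and 0 in IgG control 2 and anti-B7-H3 1. Elsewhere Tcrg-V3 ranged from 33.6% (anti-PD1 2) to 273% (IgG control 1) of its counts. Delta V counts were 74.7%, 47.9% and 43.8% of those of Trdc after anti-B7-H3, 48.4%, 67.2% and 46.8% after anti-PD1, and 50.3%, 60.2% and 52.0% in IgG controls, and overlapped.

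Other genes of the receptor pathway were described by lists. None of the 12 constant and CD3 genes, 12 genes of T cell surface and proximal signalling or 9 gamma delta T cell genes was called by edgeR, DESeq2 or limma-voom in any comparison. In edgeR 3 of these 33 genes had an unadjusted p under 0.05 for anti-B7-H3 against IgG control, 1 for anti-PD1 against IgG control and 2 for anti-B7-H3 against anti-PD1. Over all tested genes the shares in these comparisons were 8.81%, 10.9% and 3.23%. The constant and CD3 genes had a median log2 fold change of -0.09 (anti-B7-H3) and -0.31 (anti-PD1) against IgG controls, where that of the 22 beta segments was -0.15 and -0.46. Trbc2 averaged 946 ± 53.2 CPM after anti-PD1 and 1307 ± 319 CPM in IgG controls (log2 fold change -0.47 ± 0.25, edgeR adjusted p = 0.547), and Lck, the kinase that starts signalling from the receptor, 967 ± 86.8 CPM after anti-PD1 and 1394 ± 95.5 CPM in IgG controls (-0.53 ± 0.19, edgeR adjusted p = 0.310). In both genes every anti-PD1 library lay below every control, where 6.53% of all genes were lower in this way. Trac averaged 700 ± 110 CPM after anti-B7-H3 and 1072 ± 237 CPM in IgG controls (-0.62 ± 0.25, edgeR adjusted p = 0.510), again without overlap. After anti-B7-H3, 5.48% of all genes were lower in this way.

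The surface and signalling list had medians of -0.26 (anti-B7-H3) and -0.28 (anti-PD1) against IgG controls. Cd8b1, a chain of the CD8 coreceptor, averaged 350 ± 191 CPM after anti-B7-H3, 188 ± 56.1 CPM after anti-PD1 and 369 ± 228 CPM in IgG controls, and overlapped. Trdc, the delta constant gene, had 52.5, 74.7 and 108 CPM after anti-B7-H3, 59.9, 66.1 and 56.0 CPM after anti-PD1, and 60.8, 42.8 and 63.7 CPM in IgG controls. It overlapped between all groups.

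Gamma delta T cell genes had medians of 0.81 (anti-B7-H3) and 1.75 (anti-PD1) against IgG controls. Cd163l1, a scavenger receptor of gamma delta T cells, had 11.6, 11.9 and 19.9 CPM after anti-B7-H3, 13.5, 48.0 and 24.1 CPM after anti-PD1, and 6.86, 0 and 8.24 CPM in IgG controls. Both antibody groups lay above all controls (1.52 ± 1.15 and 2.497 ± 1.18, edgeR adjusted p = 0.816 and 0.493). Of all genes, 9.96% (anti-B7-H3) and 10% (anti-PD1) were higher in this way. The cytokine gene Il17a had 2.00, 0.774 and 0.955 CPM after anti-B7-H3, 3.71, 1.88 and 3.34 CPM after anti-PD1, and 0.601, 0.866 and 0.726 CPM in IgG controls. Anti-PD1 was above the controls in every library (2.02 ± 1.05, edgeR adjusted p = 0.532). Whether these transcripts came from the cells that carry Trdv4 was not tested.

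Recombination genes, which mark developing lymphocytes, were near absent except in 1 library. Dntt, the enzyme that adds bases at the joints, had 9.49 CPM in anti-B7-H3 1 and at most 2.80 CPM elsewhere, and Rag1, a subunit of the recombinase, had 2.15 CPM there and at most 0.543 CPM elsewhere. Anti-B7-H3 1 is the library with the highest beta total, and whether the 2 are related was not tested. The alpha chains of invariant T cells were low. Trav11, that of invariant NKT cells, had 5.34, 4.95 and 10.4 CPM after anti-B7-H3, 5.09, 4.81 and 6.26 CPM after anti-PD1, and 8.33, 10.3 and 7.10 CPM in IgG controls, and Trav1, that of MAIT cells, stayed between 2.30 and 5.54 CPM. Trav11 was lower in all anti-PD1 libraries than in the controls (edgeR adjusted p = 0.719), as were 6.53% of all genes. Neither gene was called in any comparison by edgeR, DESeq2 or limma-voom.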

How the data were processed

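The data were bulk RNA-seq of CD45+ cells in 9 libraries. Per the labels' protocols, RNA (500 ng or more, integrity number 7.0 or more) went into SMART-Seq v4, ribosomal RNA depletion and Nextera XT. The submitters' processing notes name FastQC 0.11.8 and the build GRCm38. The quantifier is not given in the sources used here. The deposited tables give, per the file headers, lengths, TPM and an estimated count for 58083 transcripts, and neither is scaled between libraries by the authors beyond the definition of TPM. Of the lengths, 87.3% are multiples of 3, so they are coding lengths.

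GENCODE M21 matched 57409 transcripts to 22136 genes, and 674 were not used. Counts were summed per gene and rounded. edgeR 4.0.16 in R 4.3.3 (TMM, filterByExpr, robust quasi-likelihood fit over all 9 libraries, no covariate) tested 13178 genes in 3 comparisons, adjusted by Benjamini-Hochberg at 0.05. CPM use TMM-scaled library sizes. Locus totals were compared as log2(CPM + 0.5), and locus totals, diversity and shares by exact two-sided permutation over libraries (SciPy 1.17.1). DESeq2 1.42.0 and limma 3.58.1 (voom with quality weights) were alternatives. The fit was tested on simulated data.

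The segments and lists were chosen with earlier results of these data known. Values by library are given for the 8 beta segments of highest mean CPM, the leading segment of each library, every gamma and delta segment with at least 10 counts in a library, and the 3 with the smallest p in each comparison. Identity is from global alignment. Replicate numbers were not used to pair samples. Deviations from the group means of same-numbered libraries had correlations of -0.12 to 0.16. With 3 libraries a group these cannot show whether same-numbered libraries share a batch.

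Marker lists outside T cells and macrophages were also summed, in the order anti-B7-H3, anti-PD1 and IgG control. Neutrophil markers gave 200 to 384, 562 to 820 and 57.2 to 90.0 CPM, B cell markers 49.5 to 429, 47.2 to 119 and 23.3 to 81.9, and NK cell markers 1561 to 2109, 1364 to 1792 and 615 to 1901. Erythroid markers gave 6.75 to 11.2, 2.02 to 30.2 and 7.48 to 435 CPM, and melanoma markers 0.955 to 3.41, 0.0835 to 5.66 and 1.00 to 11.4. Against IgG control, edgeR called 3 of 4 neutrophil markers higher after anti-B7-H3 and 4 of 4 after anti-PD1, and 0 of the 15 tested B cell, NK cell, erythroid and melanoma markers, of which 6 and 2 had an unadjusted p under 0.05. Of all tested genes 0.827% and 1.72% were called higher, and 8.81% and 10.9% had an unadjusted p under 0.05. DESeq2 called 1 B cell marker higher after anti-B7-H3 and 1 erythroid marker lower after each antibody, and limma-voom 0 of the 15.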

Additional observations from a re-analysis of the deposited data

How the results depend on the processing

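No V segment was called under any of the alternatives, which were other scalings, tools, filters and counts, only 6 libraries, the replicate number as a block, each library left out in turn, and, chosen after seeing the data, the table without IgG control 2 and anti-PD1 3. The number of genes called over the whole table, 112, 229 and 0 (anti-B7-H3 against IgG control, anti-PD1 against IgG control, anti-B7-H3 against anti-PD1), was 394, 660 and 15 with DESeq2, 2 in the third with limma-voom, and 44 and 136 in the first 2 from only 6 libraries, where fewer samples enter. With each library left out in turn it ran from 59 to 144, 113 to 262 and 0 to 1. With the replicate block it was 64 and 127. Samples were not treated as paired by these numbers, and the blocked fit left the third count at 0. With 3 libraries a group, the p of a test of a total or a share cannot fall below 0.1.

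Several differences in totals and diversity changed sign, and none of them had passed a test in either form; the cause was not tested. Over libraries left out in turn, the beta total ran from -0.030 to 0.43 for anti-B7-H3 against anti-PD1, the gamma total from -0.032 to 1.04 for anti-PD1 against IgG control and from -0.20 to 0.34 for anti-B7-H3 against anti-PD1, and the delta total from -0.10 to 0.27 for anti-PD1 against IgG control. The effective number ran from -0.047 to 0.71 for anti-PD1 against IgG control. The share of the leading segment ran from -1.39 to 0.11 percentage points for anti-B7-H3 against IgG control and from -0.078 to 1.42 against anti-PD1, and the beta V to Trbc ratio from -0.11 to 0.090 for anti-B7-H3 against anti-PD1. With Cd3e in place of Trbc1 and Trbc2 that ratio was 0.030 for anti-B7-H3 against IgG control and 0.24 against anti-PD1. With the Trbv12 and Trbv13 segments merged, the effective number differed by -0.041 for anti-B7-H3 against IgG control and by -0.45 against anti-PD1, and the leading share by 2.00 points for anti-B7-H3 against IgG control. The beta total of anti-PD1 stayed below IgG control without each library in turn, from -0.63 to -0.45, and the delta total of anti-B7-H3 stayed above it, from 0.33 to 0.53. Beta segments whose shares did not overlap numbered 5 to 11, 2 to 7 and 8 to 11 with a library left out, where fewer libraries make separation easier. Scaling by the beta total moved the median of all genes to 0.32, 0.49 and -0.19 and the median of the segments to 0.16, 0.14 and 0.14.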
